A study of Mus musculus with 22 samples.

Results

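Chemokine receptors are G protein-coupled receptors that steer leukocytes along gradients of chemokines, and each leukocyte type carries its own set of them. In tumors, receptors of inflammatory chemokines are known for bringing in monocytes, neutrophils and effector T cells, while Ccr7 and Cxcr4 also guide cells to lymphoid tissue and bone marrow. The 8 receptors described here, Ccr1, Ccr2, Cx3cr1, Cxcr2, Ccr7, Cxcr3, Cxcr6 and Cxcr4, were chosen by name as receptors of the leukocytes that enter tumors, and all 8 are among the 46882 genes of the deposited table.

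RNA was measured by QuantSeq, which sequences transcripts from their 3′ ends, in 16 libraries of MC38, a mouse colon carcinoma line from a C57BL/6 mouse, of the tumors it forms and of normal skin. Tumors came from subcutaneous injection of MC38 cells into 8- to 12-week-old female mice, with 3 wild-type tumors of day 23, 3 wild-type tumors of day 46 (both C57BL/6N), and 3 tumors each of day 13 and day 23 labelled RAG1-/- (strain B6.129S7-Rag1tm1Mom/J). RAG1 is the recombinase subunit without which mature T and B cells are not formed, and mice without it keep NK cells and myeloid cells. The reference samples were 2 libraries of MC38 cells of day 0 and 2 libraries of skin of wild-type C57BL/6N mice of the same age, labelled day 23. All tumors carried the same cell line. Both the early and the late day differ between the genotypes, which share only day 23. Comparisons over both days set wild-type days 23 and 46 against RAG1-/- days 13 and 23, so genotype and day cannot be told apart there. The labels do not say whether the MC38 libraries are separate cultures or the skin libraries separate mice, so their spread may be technical. Tests against these libraries share an estimate of the spread with the tumors, so their p-values measure mostly the spread between tumors.

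The libraries held 5589151 to 26134241 reads on genes, and 3 reads, taken as the limit of detection, stood at 1.33 to 6.38 normalized counts. The floor covers counting error only, and reads without molecular identifiers are not independent molecules. Rag1 does not check the genotype, because its normalized count was 1.07 to 11.4 in the 6 tumors labelled RAG1-/- and 0 to 0.628 in the wild-type tumors, and the sources used here do not say which part of the gene is missing. T cell genes did follow the labels. The summed level of 8 T cell genes was 75.0 to 250.04 normalized counts in the wild-type tumors and 1.11 to 19.1 in those labelled RAG1-/-, where Cd3e, Cd3g, Cd8b1 and Trac were at 0 in all 6. Leukocytes of other kinds were present in both genotypes, with 4 pan-leukocyte genes summing to 3416 to 5725 normalized counts in tumors labelled RAG1-/- and 4260 to 6730 in wild-type tumors. MC38 cells lacked them, at 0.978 and 1.71. The skin label was borne out by 4 keratinocyte genes that summed to 247886 and 262501 normalized counts. In bulk RNA a lower level can come from fewer cells of a type or from less RNA per cell, and these cannot be told apart.

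Of the receptor genes, 4 lie on chromosome 9, where Cxcr6, Ccr1 and Ccr2 belong to the inflammatory receptor cluster. In GENCODE coordinates of GRCm38, the same build as the mm10 used by the authors, Cxcr6 spans chr9:123806475-123811760 on the plus strand, within the opposite-strand gene Fyco1 and without shared exonic bases. Ccr1 spans chr9:123962124-123968692 on the minus strand and Ccr2 chr9:124101950-124113557 on the plus strand, so that the 3 genes lie within 307.1 kb. Cx3cr1 lies apart at chr9:119901616-120069879 on the minus strand, with 1.73% of its exonic bases shared with the antisense gene Gm33858. The other members are Cxcr2 (chr1:74153989-74161246, plus strand), Cxcr4 (chr1:128588199-128592293, minus strand), Ccr7 (chr11:99144196-99155077, minus strand) and Cxcr3 (chrX:101731535-101734269, minus strand), and none of these shares exonic bases with another annotated gene.

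The RefSeq promoter table for GRCm38.p6 held 7 of the 8 members, all but Ccr7. The 250 bases before the start site are printed for 2 receptors of the same cluster. Cxcr6 passed the test between the genotypes over both days, where genotype and day cannot be told apart, and Ccr1 did not. The last bases of the Cxcr6 window reach the GENCODE start of the gene. Each sequence runs 5′ to 3′ along the gene. Capitals mark the T-box element TCACAC and the PU.1 core GAGGAA, each searched on both strands. T-box factors act in effector T cells and NK cells and PU.1 in myeloid cells, and a match is a run of letters, not a shown binding site.
Cxcr6 (chr9:123806227-123806476, plus strand): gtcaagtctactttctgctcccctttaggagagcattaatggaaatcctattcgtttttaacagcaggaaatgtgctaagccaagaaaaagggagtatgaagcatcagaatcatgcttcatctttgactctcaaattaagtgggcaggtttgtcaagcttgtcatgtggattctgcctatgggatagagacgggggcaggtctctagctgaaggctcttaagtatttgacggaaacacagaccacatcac
Ccr1 (chr9:123968693-123968942, minus strand): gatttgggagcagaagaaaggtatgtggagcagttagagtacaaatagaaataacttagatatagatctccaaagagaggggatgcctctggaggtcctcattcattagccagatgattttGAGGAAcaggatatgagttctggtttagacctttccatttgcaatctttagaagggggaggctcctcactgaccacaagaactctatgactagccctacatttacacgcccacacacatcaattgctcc
The T-box element occurred in 12.2% of 27025 mouse promoter windows of this length and, among the members, in the Cxcr3 window. The PU.1 core occurred in 23.1% of all windows and in those of Ccr1, Cxcr2 and Cxcr3. The Cxcr3 window is not printed, because the RefSeq start lies within the first exon of the GENCODE gene and the end of the window, with the PU.1 core, falls inside that exon. The Cxcr6 window held neither run of letters.

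Differences between groups were tested with limma on log2(normalized count + 1) for genes averaging 5 or more normalized counts in the libraries compared, with Benjamini-Hochberg adjustment over all genes tested and a threshold of 0.05. Fold changes are on this log2 scale with their standard error (SE), which understates the change of low genes. Of the 8 receptors, 7 passed this filter. Cxcr3 did not and was compared by an exact permutation test. Cxcr2 passed narrowly, with a mean of 5.204 normalized counts over the 12 tumors. Levels are compared between groups for each receptor and not between receptors.

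**Figure D1:**
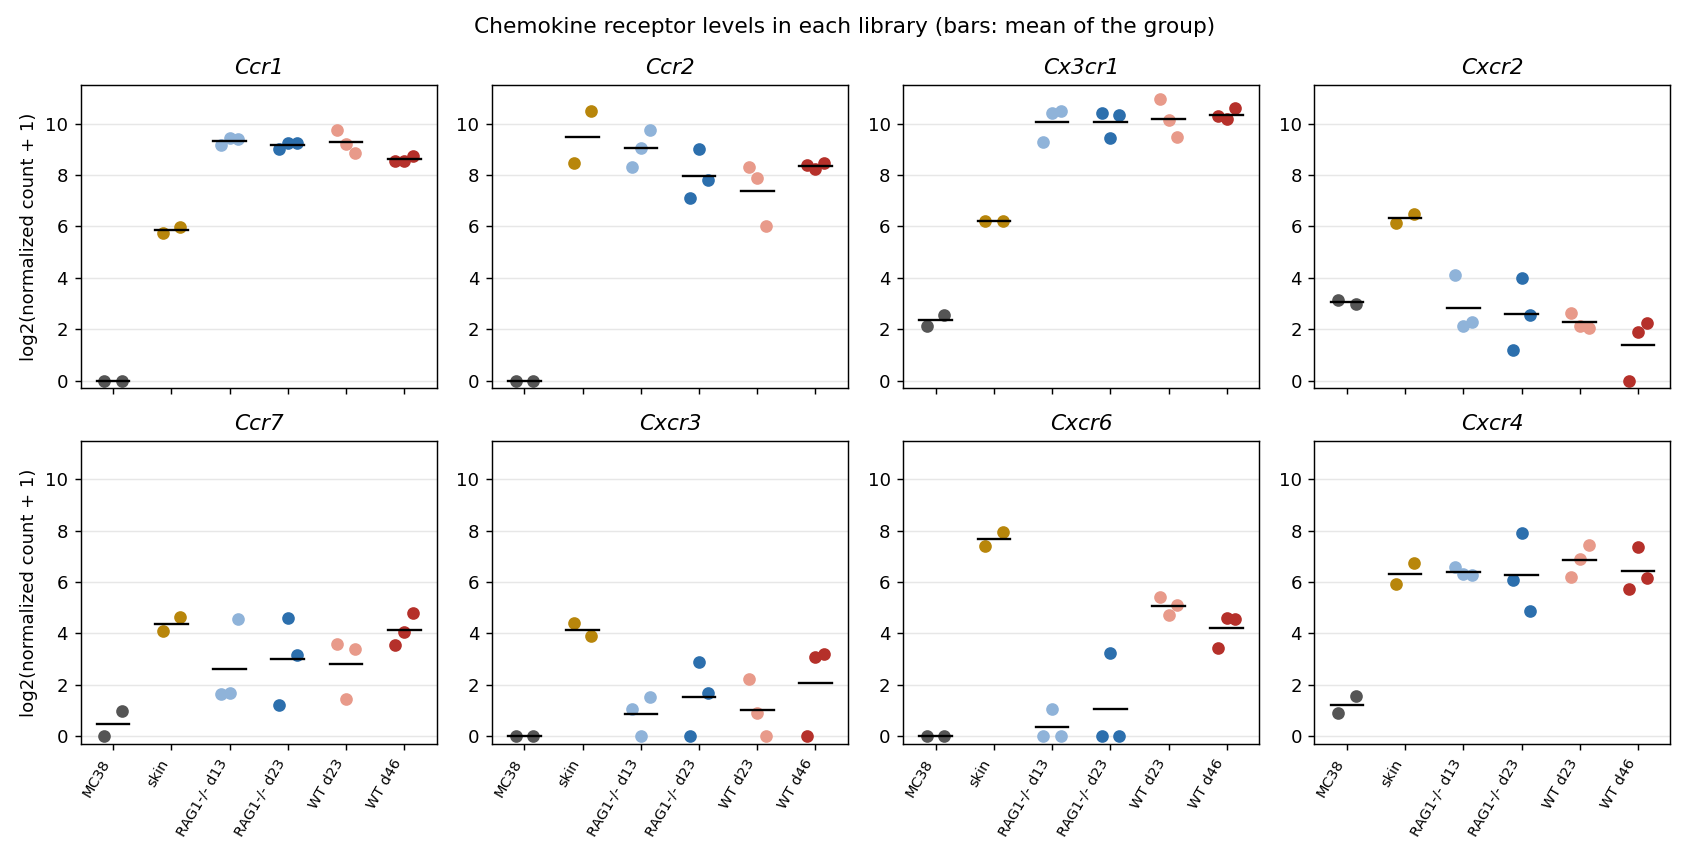
The plot shows the level of each receptor, as log2(normalized count + 1), in every library of MC38 cells, skin, tumors labelled RAG1-/- of day 13 and day 23, and wild-type (WT) tumors of day 23 and day 46; points are libraries and bars are group means. Cxcr6 is the receptor whose 6 wild-type tumors, at 9.77 to 42.0 normalized counts, all lie above the 6 tumors labelled RAG1-/-, at 0 to 8.51.

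Cxcr6, the receptor of the transmembrane chemokine Cxcl16, is carried by tissue-resident and effector T cells, NKT cells and innate lymphoid cells. At day 23 the wild-type tumors had normalized counts of 42.0, 25.6 and 33.3, and at day 46 of 9.77, 23.5 and 22.6. In tumors labelled RAG1-/- it was 0, 1.11 and 0 at day 13 and 0, 8.51 and 0 at day 23, which amounts to 5 reads in 6 libraries against 189 reads in the wild-type tumors. Every wild-type tumor was above every tumor labelled RAG1-/-, and the highest of the latter, day 23 replicate 2, came close to the lowest wild-type tumor, day 46 replicate 1. Over both days the wild-type mean was 26.1 ± 10.9 (SD, n = 6) and the mean of tumors labelled RAG1-/- was 1.60 ± 3.41 (SD, n = 6), a ratio of 16.3 and a log2 fold change of 3.92 (SE 0.59, limma adjusted p = 0.0054). Such a lack of overlap over both days was seen for 0.983% of the 14746 genes tested, and 0.712% of them passed the test.

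At day 23 alone, the time that both genotypes share, the log2 fold change of Cxcr6 was 4.003 (SE 0.84), with an unadjusted p of 0.000235 and a limma adjusted p of 0.064, above the threshold. No member passed at this day, where 0.278% of genes did (41 by limma, 22 by edgeR and 242 by DESeq2, with 1646 at an unadjusted p under 0.05). The day 23 groups of Cxcr6 did not overlap, as for 16.1% of all genes with 3 against 3 tumors. Without replicate 2 of the RAG1-/- day 23 tumors, which held 4 of the 5 Cxcr6 reads of its genotype and was the smallest library at 5589151 reads, the day 23 log2 fold change was 5.09 and passed (limma adjusted p = 0.016). DESeq2 on the recovered reads also called Cxcr6 at day 23, with a log2 fold change of 4.17 and an adjusted p of 0.011, and so did limma with a pseudocount of 5 (adjusted p = 0.032). Over all alternatives its adjusted p at day 23 ran from 0.011 to 0.27. With the filter raised to a mean of 20, Cxcr6, whose mean over the 12 tumors was 13.9, is no longer tested.

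T cell genes were also higher in wild-type tumors over both days, and their part in the Cxcr6 difference was not tested. Of 8 T cell genes, 7 were tested and 5 were higher in wild-type tumors over both days: Cd3d, Cd3e, Cd8a, Cd8b1 and Trac. Cd3e, a chain of the T cell receptor complex, had a log2 fold change of 3.69 (SE 0.56, limma adjusted p = 0.0054), and Cd8a, the coreceptor of cytotoxic T cells, of 4.55 (SE 0.54, limma adjusted p = 0.00058). The median log2 fold change of the 7 T cell genes was 3.73, beside 0.01 over all genes tested. At day 23 alone the median was 3.64, and of the 7 only Cd8a passed. Cd8a missed the threshold there without replicate 1 of either genotype or wild-type replicate 3 (limma adjusted p of 0.057 to 0.10). From day 23 to day 46 in wild-type tumors the T cell median was 0.09, beside -0.88 for Cxcr6, and none of these genes passed. Of 6 B cell genes 3 were tested and Igkc, the kappa light chain, was higher, while neither of the 2 NK cell genes tested passed. The 5 NK cell genes summed to 9.77 to 78.9 normalized counts in wild-type tumors and 16.7 to 62.3 in those labelled RAG1-/-, which overlap. Cxcr6 was also high in skin, and 1 wild-type tumor stood out for keratinocyte genes. The 4 of them summed to 1523 normalized counts in wild-type day 23 replicate 2, against 227 to 700.4 in the other wild-type tumors, 376 to 479 in those labelled RAG1-/- and 308 and 313 in MC38 cells. The part of skin in the Cxcr6 levels was not tested. Cxcr6 passed over both days without any single tumor.

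**Figure D2:**
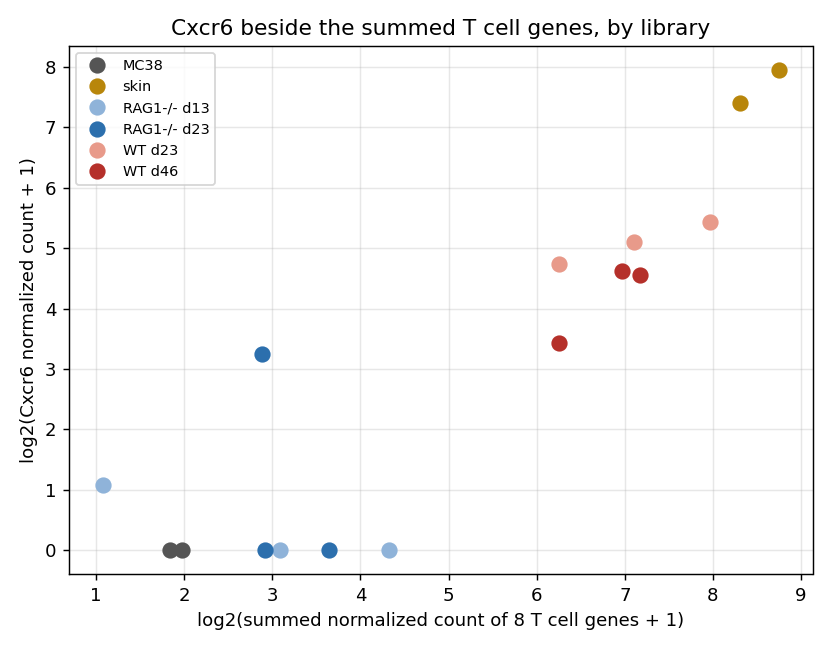
Each point is 1 library, with the summed level of 8 T cell genes on the horizontal axis and Cxcr6 on the vertical axis, both as log2(normalized count + 1). Tumors labelled RAG1-/- and MC38 cells lie at the lower left, wild-type tumors (summed T cell genes of 75.0 to 250.04) in the middle, and skin (315 and 428) at the upper right.

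The ligand of Cxcr6 was abundant in tumors of both genotypes. Cxcl16, made by macrophages and dendritic cells, had a normalized count of 843 to 1225 in tumors labelled RAG1-/- and 957 to 1693 in wild-type tumors, with a log2 fold change of 0.33 (SE 0.13, limma adjusted p = 0.34). It was 0 in both MC38 libraries and 873 and 896 in skin, at least 463-fold higher in wild-type tumors than the floor of 3 reads in MC38 cells allows. Cxcr6 itself was at 0 in both MC38 libraries, so its level in wild-type tumors was at least 9.50-fold above the same floor (limma adjusted p = 0.00036).

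The second receptor of effector T cells, Cxcr3, which binds the interferon-induced chemokines Cxcl9, Cxcl10 and Cxcl11, was near the limit of detection in all tumors. Wild-type tumors had normalized counts of 3.69, 0.852 and 0 at day 23 and 0, 7.39 and 8.16 at day 46. The count was 1.07, 0 and 1.91 in tumors labelled RAG1-/- of day 13, and 0, 6.38 and 2.21 in those of day 23. The groups overlapped, with 2 of 6 libraries at 0 in each genotype. The difference of means over both days was 1.42 normalized counts higher in wild-type tumors (two-sided exact permutation test, p = 0.45), and at day 23 it was -1.35 (p = 0.70, where 3 against 3 cannot go below 0.10), turning to 0.41 without replicate 2 of the RAG1-/- day 23 tumors. At this depth no difference could be detected. Skin held 20.1 and 14.0 and MC38 cells 0.

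Among the Cxcr3 ligands, Cxcl9 did differ between the genotypes. Its normalized count was 736 to 3899 in wild-type tumors and 29.8 to 127 in those labelled RAG1-/-, with a log2 fold change of 4.72 (SE 0.31, limma adjusted p = 7.6e-07) over both days and 5.54 (SE 0.44, adjusted p = 2.2e-05) at day 23. Cxcl10 and Cxcl11, induced by the same interferons, did not pass, with log2 fold changes over both days of -0.08 (SE 0.17) and 0.36 (SE 0.36). Cxcl9 was 0 in both MC38 libraries and 636 and 885 in skin.

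The receptors of monocytes and macrophages, Ccr1, Ccr2 and Cx3cr1, were detected in every tumor, and none of them passed the test between genotypes. Ccr1, which binds Ccl3, Ccl5, Ccl6, Ccl7 and Ccl9 and is carried by monocytes, macrophages and neutrophils, had normalized counts of 566, 686 and 676 in tumors labelled RAG1-/- of day 13 and 516, 600.1 and 597 in those of day 23. In wild-type tumors it was 865, 595 and 458 at day 23 and 375, 375 and 424 at day 46. The wild-type day 46 tumors were thus the lowest of the 12, and the genotypes overlapped through the day 23 tumors. Over both days the log2 fold change was -0.30 (SE 0.14, limma adjusted p = 0.45, 95% confidence interval -0.60 to 0.01).

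Ccr2, which brings Ly6C-high monocytes from the marrow toward Ccl2, Ccl7 and Ccl12, varied widely within groups. Tumors labelled RAG1-/- had normalized counts of 319.8, 530.4 and 853 at day 13 and 135, 519 and 220.1 at day 23. Wild-type tumors had 315, 233 and 63.4 at day 23 and 332, 301 and 354 at day 46. The day 46 tumors lay close together, with a coefficient of variation of 8.03%, against 47.3% to 69.3% in the other groups. The log2 fold change over both days was -0.62 (SE 0.37, limma adjusted p = 0.57, interval -1.42 to 0.17). At day 23 it was -0.57 (SE 0.53), and it turned to 0.12 without wild-type day 23 replicate 3, the lowest tumor.

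Cx3cr1, the fractalkine receptor of patrolling monocytes and many tissue macrophages, had normalized counts of 617, 1359.8 and 1415 in tumors labelled RAG1-/- of day 13 and 1373, 696 and 1285 in those of day 23. In wild-type tumors it was 1997, 1112 and 704 at day 23 and 1241, 1153 and 1534 at day 46. The 4 groups overlapped, and the log2 fold change over both days was 0.21 (SE 0.26, limma adjusted p = 0.82, interval -0.34 to 0.75). Cx3cl1, its membrane-bound ligand, had 13.3 to 64.5 normalized counts in tumors labelled RAG1-/- and 14.5 to 56.8 in wild-type tumors.

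Of the 8 monocyte and macrophage genes, none passed between genotypes over both days, and their sum was 4765 to 8051 normalized counts in wild-type tumors and 3984 to 6739 in those labelled RAG1-/-. The ligands of Ccr1 and Ccr2 were tested as well. None of the 5 Ccr1 ligands and none of the 4 Ccr2 ligands, which share Ccl7, passed, with median log2 fold changes of -0.07 and -0.02.

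Cxcr4, the receptor of Cxcl12 on most leukocytes and many other cells, had normalized counts of 96.3, 77.8 and 77.2 in tumors labelled RAG1-/- of day 13 and 66.8, 238 and 28.3 in those of day 23. Wild-type tumors had 71.5, 119 and 171 at day 23 and 51.8, 166 and 69.7 at day 46. Replicate 2 of the RAG1-/- day 23 tumors was the highest of the 12 and replicate 3 of the same group the lowest. The log2 fold change over both days was 0.29 (SE 0.42, limma adjusted p = 0.85, interval -0.61 to 1.18), and without replicate 3 of the RAG1-/- day 23 tumors it was -0.07. Cxcl12, made by stromal cells, had 189 normalized counts in RAG1-/- day 23 replicate 2 and 263 in wild-type day 46 replicate 2. The other tumors had 12.7 to 147. The lowest, 12.7, was in wild-type day 23 replicate 3, where Cxcr4 was 171. Wild-type day 46 replicate 3 had 147 of Cxcl12 and 69.7 of Cxcr4. The part of Cxcl12 in the Cxcr4 levels was not tested.

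Ccr7, the lymph node homing receptor of naive T cells and mature dendritic cells, and Cxcr2, the neutrophil receptor of Cxcl1, Cxcl2 and related chemokines, were low in all tumors. Ccr7 had normalized counts of 2.14, 2.22 and 22.9, then 1.31, 23.4 and 7.95 in tumors labelled RAG1-/- of day 13 and day 23, and of 11.1, 1.70 and 9.51, then 10.8, 15.4 and 27.0 in wild-type tumors of day 23 and day 46. The values within a group varied widely, and the log2 fold change over both days was 0.65 (SE 0.67, limma adjusted p = 0.77). Cxcr2 was 16.0, 3.34 and 3.81, then 1.31, 14.9 and 4.86 in tumors labelled RAG1-/- and 5.16, 3.41 and 3.17, then 0, 2.69 and 3.77 in wild-type tumors. It had a log2 fold change of -0.88 (SE 0.63, limma adjusted p = 0.64). None of the 5 neutrophil genes tested passed between genotypes, nor did any of the 5 Cxcr2 ligands or Ccl21a, the ligand of Ccr7 that was tested.

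Among other chemokine receptors, Xcr1, the receptor of cross-presenting dendritic cells, lay below the filter and was named after its values were seen. It was listed at 0 in all 6 tumors labelled RAG1-/- and at 3.17 to 19.9 in the wild-type tumors. The wild-type mean was at least 2.8-fold above the floor of 3 reads. Of the genes that passed the filter, 0.983% did not overlap over both days. Ccrl2, a chemokine-binding receptor related to this family, did not pass between genotypes, with a log2 fold change of 0.05 (SE 0.41, limma adjusted p = 0.98) over both days.

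**Figure D3:**
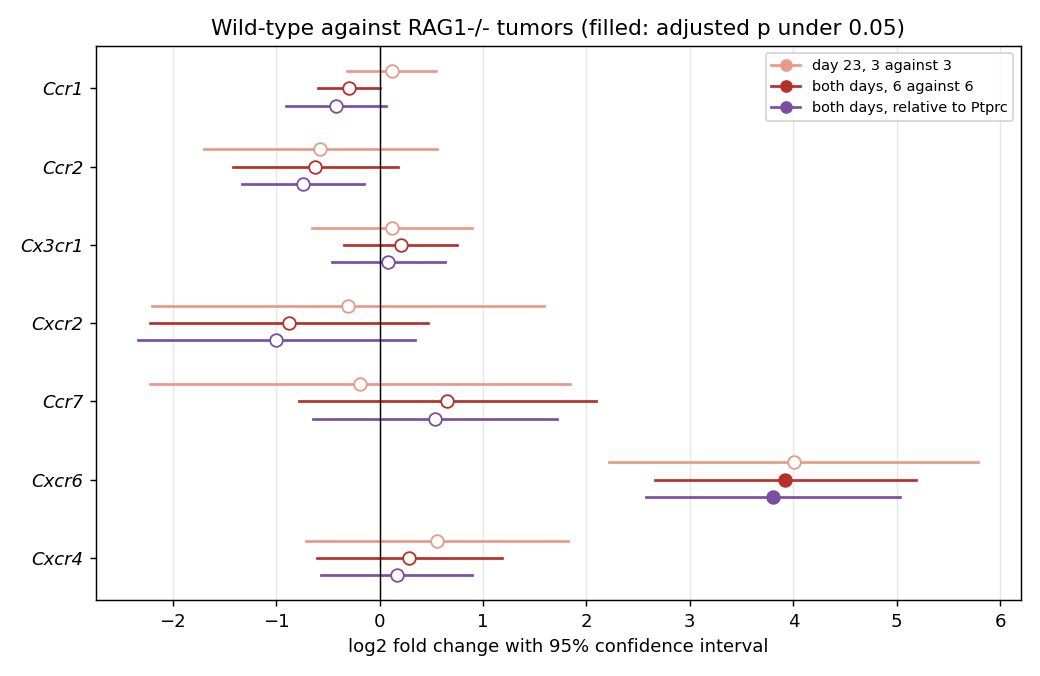
The plot gives the log2 fold change of wild-type against RAG1-/- tumors with its 95% confidence interval for the 7 receptors tested, at day 23, over both days, and over both days relative to Ptprc; filled circles passed the adjusted threshold. Cxcr6 is the receptor whose intervals all lie above 0, with log2 fold changes of 3.80 to 4.003.

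The receptors were also set against Ptprc, the pan-leukocyte gene CD45, to ask whether a difference exceeded that in leukocyte RNA as a whole. Ptprc was close in the genotypes, with a log2 fold change of 0.12 (SE 0.16, limma adjusted p = 0.83) over both days. Per 100 normalized counts of Ptprc, Cxcr6 stood in wild-type tumors at 4.59, 2.86 and 4.91 (day 23) and 1.36, 2.63 and 4.22 (day 46), and at 0 to 1.01 with the RAG1-/- label. The groups again did not overlap, but the share of all genes that do not overlap on this scale was not counted. After the log2 level of Ptprc was subtracted from every gene, the log2 fold change of Cxcr6 was 3.80 (SE 0.61, limma adjusted p = 0.00022), and 0.583% of 14745 genes passed. Without Ptprc the log2 fold change was 3.92 with an SE of 0.59. The smaller adjusted p here therefore does not mark a larger or more exact difference. No other member passed. Ccr2 stood at 26.1 to 97.4 per 100 counts of Ptprc in tumors labelled RAG1-/- and 9.35 to 66.0 in wild-type tumors, with a log2 fold change of -0.74 (SE 0.29, unadjusted p = 0.0146, limma adjusted p = 0.56). Ccr1 gave -0.42 (SE 0.24, adjusted p = 0.91) and Cx3cr1 0.09 (SE 0.27, adjusted p = 0.99).

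**Figure D4:**
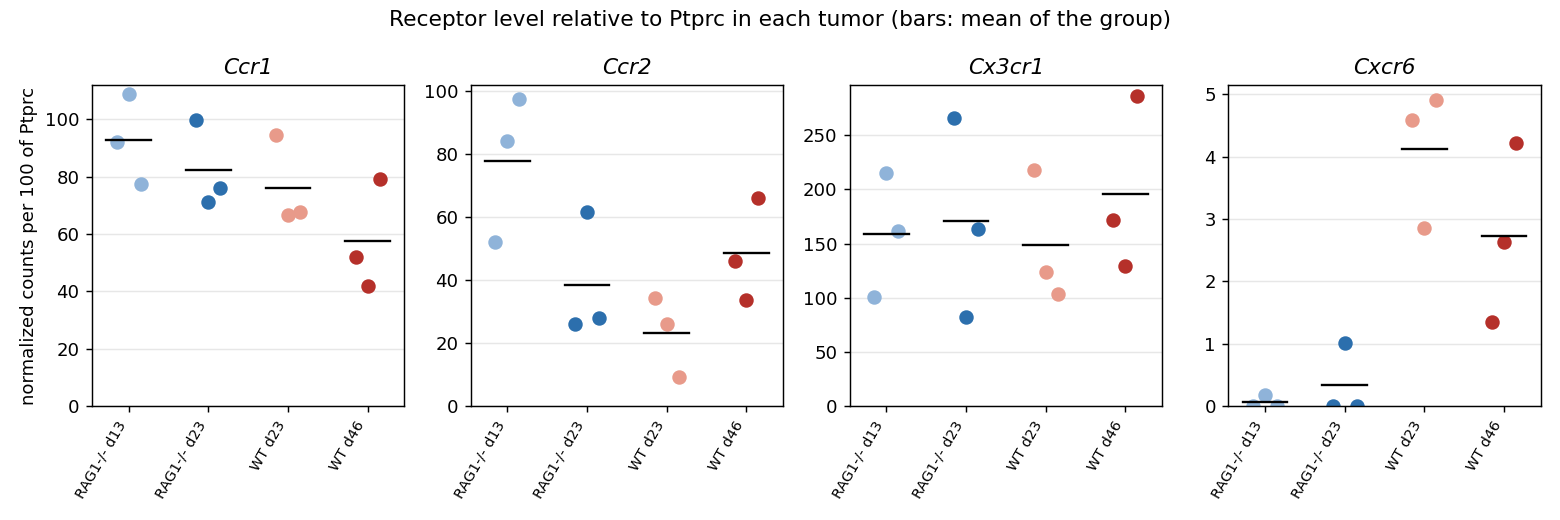
Normalized counts of Ccr1, Ccr2, Cx3cr1 and Cxcr6 per 100 normalized counts of Ptprc are plotted for each tumor, with group means as bars and axes that start at 0. The Cxcr6 values of wild-type tumors, 1.36 to 4.91, lie above those of tumors labelled RAG1-/-, 0 to 1.01, while the other 3 receptors overlap.

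Change over time was compared within each genotype. Between day 23 and day 46 in wild-type tumors no member passed, as no gene did by limma or edgeR (0% of 14746 genes, with 1261 at an unadjusted p under 0.05 and 41 called by DESeq2). Ccr1 had a log2 fold change of -0.66 (SE 0.20, unadjusted p = 0.0049, limma adjusted p = 0.42), and its 3 day 46 tumors, at 375 to 424 normalized counts, lay below the 3 day 23 tumors, at 458 to 865. Cxcr6 had -0.88 (SE 0.84, limma adjusted p = 0.80) and its groups did not overlap either. Such separation of 3 against 3 was seen for 12.5% of all genes. Ccr2 gave 0.97 (SE 0.53, adjusted p = 0.64).

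Between day 13 and day 23 in tumors labelled RAG1-/- no member passed, nor did any gene by limma or edgeR (0% of 14746 genes, with 1722 at an unadjusted p under 0.05 and 207 called by DESeq2). Ccr2 had a log2 fold change of -1.07 (SE 0.53, unadjusted p = 0.060, adjusted p = 0.45). The late minus early change was then compared between the genotypes, although the days differ. It passed for no gene by limma or edgeR (0%, with 1279 at an unadjusted p under 0.05 and 58 called by DESeq2). The difference in change was 2.04 (SE 0.75) for Ccr2, with an unadjusted p of 0.0153 and a limma adjusted p of 0.48. For Cxcr6 it was -1.61 (SE 1.19, adjusted p = 0.76) and for Ccr1 -0.49 (SE 0.28, adjusted p = 0.67).

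MC38 cells in culture carried little RNA of these receptors. Ccr1, Ccr2, Cxcr3 and Cxcr6 were at 0 in both MC38 libraries. Ccr7 was 0 and 0.978, Cxcr4 0.856 and 1.96, Cx3cr1 3.42 and 4.89, and Cxcr2 7.70 and 6.84 normalized counts. Tumors of each genotype were compared with these same 2 libraries, so the comparisons share their controls. In tumors labelled RAG1-/-, 4 of the 7 receptors tested were higher than in MC38 cells (Ccr1, Ccr2, Cxcr4 and Cx3cr1) and none lower, beside 15.8% of 14708 genes that were higher. In wild-type tumors 6 of 7 were higher, Ccr7 and Cxcr6 being added, beside 18.3% of genes.

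Against the floor of 3 reads in MC38 cells, Ccr1 was at least 221-fold higher in tumors labelled RAG1-/- and at least 187-fold higher in wild-type tumors. Ccr2 was at least 156-fold and at least 96.9-fold higher. Cx3cr1, with 9 reads in the MC38 libraries together, had log2 fold changes of 7.71 (SE 0.35, limma adjusted p = 9.2e-12) and 7.91 (SE 0.35, adjusted p = 6.2e-12). Cxcr4 rested on 3 reads in MC38 cells. Its pooled ratio was 53.6 in tumors labelled RAG1-/- (exact binomial 95% interval 18.2 to 261) and 76.0 in wild-type tumors (25.9 to 369). These intervals take each read as independent and cover counting error only, not the spread between libraries. The limma adjusted p was 2.9e-06 and 1.3e-06.

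Ccr7 rested on 1 MC38 read. Its log2 fold change was 2.98 (SE 0.94, limma adjusted p = 0.025) in wild-type tumors and 2.32 (SE 0.94, adjusted p = 0.086) in those labelled RAG1-/-. The call in wild-type tumors was lost without either MC38 library (adjusted p of 0.22 and 0.084), with no filter (0.062), with a pseudocount of 5 (0.065) and with the replicate number as a block (0.051). In tumors labelled RAG1-/- Ccr7 passed with a pseudocount of 0.1 (adjusted p = 0.027), with DESeq2 (0.045) and without day 23 replicate 1 (0.030), so the calls do not separate the genotypes. Cxcr6 in tumors labelled RAG1-/- was under the floor of 3 reads except in day 23 replicate 2, which held 4 reads. Its mean over the genotype, 1.60 normalized counts, was under the floor of 2.75 in MC38 cells, so no fold is given. Cxcr2 had log2 fold changes of -0.34 (SE 0.84, limma adjusted p = 0.82) in tumors labelled RAG1-/- and -1.22 (SE 0.84, adjusted p = 0.31) in wild-type tumors. Tumors labelled RAG1-/-, at 1.31 to 16.0 normalized counts, overlapped MC38 cells, at 6.84 and 7.70. Wild-type tumors, at 0 to 5.16 on 23 reads in all, lay below both MC38 libraries, which held 16 reads together. How many of all genes separate in this way was not counted. The pooled ratio of wild-type tumors to MC38 cells was 0.434 (exact binomial 95% interval 0.219 to 0.878, counting error only).

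**Figure D5:**
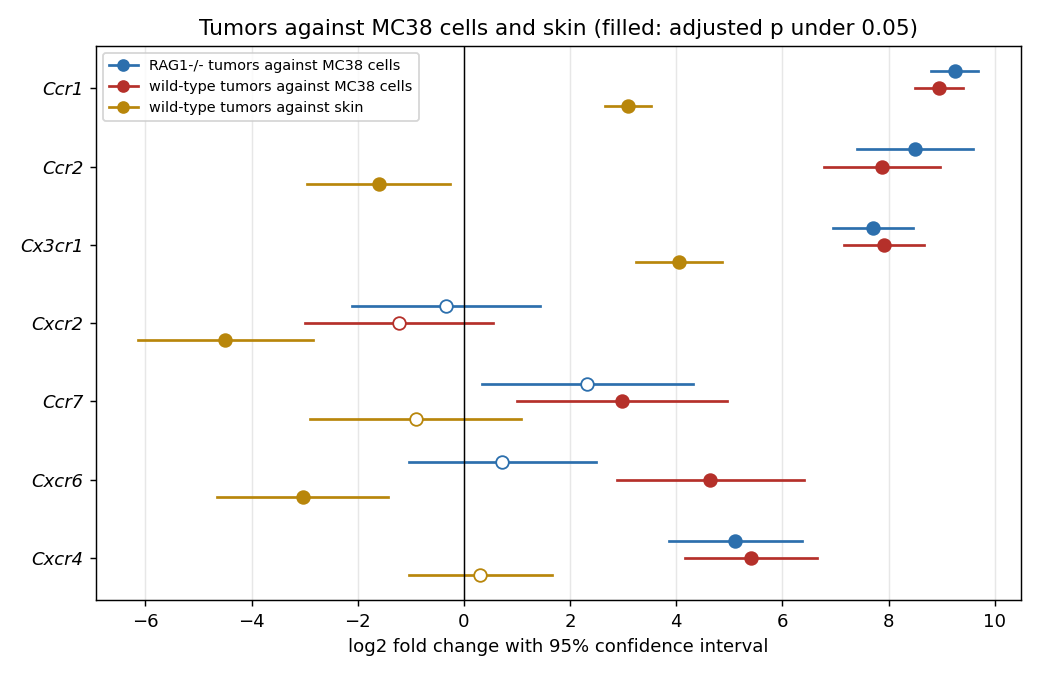
Log2 fold changes with 95% confidence intervals are plotted for tumors labelled RAG1-/- against MC38 cells, wild-type tumors against MC38 cells and wild-type tumors against skin; filled circles passed the adjusted threshold. Ccr1 and Cx3cr1 were higher in wild-type tumors than in both references, while Cxcr6 was higher than in MC38 cells, by 4.64 on the log2 scale, and lower than in skin, with a log2 fold change of -3.03.

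Skin held all 8 receptors. Its normalized counts were 52.2 and 62.5 for Ccr1, 355 and 1443 for Ccr2, 73.7 and 72.7 for Cx3cr1, 69.7 and 89.2 for Cxcr2, 16.1 and 24.2 for Ccr7, 58.9 and 106 for Cxcr4, and 169 and 246 for Cxcr6. The skin libraries agreed closely for Cx3cr1 and differed most for Ccr2. Skin replicate 2 also held more of the neutrophil gene S100a8 (8797 against 1128) and of Ly6c2, a marker of inflammatory monocytes (2541 against 226). The part of these cells in the skin values was not tested.

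Of the 7 receptors tested, 2 were higher in wild-type tumors than in skin and 3 were lower, beside 22.8% of 16259 genes that were higher and 34.2% that were lower. Cxcr3, below the filter here, was tested and called with no filter, with only the groups compared, without wild-type day 23 replicate 3 and without wild-type day 46 replicate 1. Its level was 14.0 and 20.1 normalized counts in skin and 0 to 8.16 in wild-type tumors. Cx3cr1 had a log2 fold change of 4.05 (SE 0.37, limma adjusted p = 5.3e-07) and Ccr1 of 3.08 (SE 0.20, adjusted p = 2.1e-08), so the mean levels were 17.6 and 8.99 times those of skin. The pan-leukocyte genes did not pass, with Ptprc at a log2 fold change of 0.15 (SE 0.31). Rescaling to the total turned the balance over all genes from 3708 higher and 5554 lower to 5504 higher and 4043 lower, and moved the median gene from -0.18 to 0.23, while the directions of the 5 receptors called remained.

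Cxcr2 was lower in wild-type tumors than in skin, with a log2 fold change of -4.49 (SE 0.77, limma adjusted p = 0.00018). The 6 neutrophil genes summed to 2001 and 14416 normalized counts in skin and 44.3 to 138 in wild-type tumors, and S100a8 and S100a9 passed as lower. Their part in the Cxcr2 difference was not tested. Cxcr6 had a log2 fold change of -3.03 (SE 0.75, adjusted p = 0.0032), which missed the threshold without skin replicate 2 (adjusted p = 0.053) and with a pseudocount of 0.1 (0.093). The 8 T cell genes summed to 315 and 428 in skin, and 4 of them (Cd3d, Cd3e, Cd3g and Cd4) were lower in wild-type tumors. Their part in the Cxcr6 difference was not tested. Ccr2 had -1.61 (SE 0.63, adjusted p = 0.041), and without skin replicate 2, where it was highest, -0.60 (adjusted p = 0.59). It also missed the threshold after rescaling by upper quartile or by total (adjusted p of 0.074 and 0.12), with no filter (0.063), without the trend (0.072), with the replicate number as a block (0.053), and without wild-type day 23 replicate 3 or any of the 3 day 46 tumors (0.051 to 0.065).

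Ccr7 and Cxcr4 did not pass against skin, with log2 fold changes of -0.90 (SE 0.93, limma adjusted p = 0.42) and 0.31 (SE 0.63, adjusted p = 0.70). Their ligands did. Ccl21a, which draws Ccr7-bearing cells into lymphatic vessels, had a log2 fold change of -5.93 (SE 0.91, adjusted p = 6.8e-05), and Cxcl12 of -4.45 (SE 0.75, adjusted p = 0.00016). Cxcl9 was higher in wild-type tumors than in skin (1.43, SE 0.45, adjusted p = 0.015) and so was Cxcl16 (0.50, SE 0.18, adjusted p = 0.026), but both missed the threshold without either skin library.

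Ordered by mean level, Cxcr6 ran from skin (207 ± 54.6 normalized counts, SD, n = 2) through wild-type tumors of day 23 (33.6 ± 8.24, n = 3) and day 46 (18.6 ± 7.68, n = 3) to tumors labelled RAG1-/- of day 23 (2.84 ± 4.91, n = 3) and day 13 (0.371 ± 0.642, n = 3) and MC38 cells at 0. Neighbors that did not pass a test were the wild-type days, the days of tumors labelled RAG1-/-, and the latter over both days and MC38 cells. Wild-type day 46 and RAG1-/- day 23 were not tested alone. Ccr1 ran from the tumors of day 13 labelled RAG1-/- (643 ± 66.8), wild-type day 23 (639 ± 207), RAG1-/- day 23 (571 ± 47.9) and wild-type day 46 (391 ± 28.5) to skin (57.4 ± 7.23), and no tested pair of tumor groups passed. For Cx3cr1 the tumor groups, with means of 1118 to 1309.5, stood above skin at 73.2 ± 0.716. Skin had the highest mean of Ccr2 (899 ± 769), Cxcr2 (79.4 ± 13.8), Cxcr3 (17.1 ± 4.29) and Ccr7 (20.1 ± 5.76), and wild-type day 23 tumors that of Cxcr4 (121 ± 49.8, beside 82.4 ± 33.1 in skin).

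The genes most alike each receptor over the 12 tumors were found by Pearson correlation of log2(normalized count + 1) with the 14746 genes tested, as a description of libraries that share depth and genotype. For Cxcr6 they were Gbp2b, an interferon-induced GTPase (r = 0.946), Rnaset2a (r = 0.935) and Cd8a (r = 0.901). These values pool genotypes that do not overlap. Within the 6 wild-type tumors r was 0.99 with Gbp2b and 0.92 with Cd8a, and within the 6 tumors labelled RAG1-/- it was 0.87 and -0.27. In the latter Cxcr6 was at 0 in 4 tumors and held 5 reads in all, and Cd8a averaged 0.074 normalized counts. The values within that genotype therefore rest on too few reads to be read. For the myeloid receptors they were Cdh2, Tmem134 and Plekhf2 (Ccr1, r = 0.872 to 0.896), Entpd5, Gm15400 and Nom1 (Ccr2, r = 0.887 to 0.952) and Nrd1, Fnbp1 and Rtn1 (Cx3cr1, r = 0.856 to 0.897). The likeness of Ccr1 and Cdh2 differed within the genotypes, with r = 0.98 in wild-type tumors and 0.19 in those labelled RAG1-/-. For the others they were Rnf138, Dmd and Mrrf (Cxcr2, r = 0.888 to 0.924), Ciz1, Chn2 and Cd248 (Ccr7, r = 0.860 to 0.869), Spata13, St6gal1 and As3mt (Cxcr3, r = 0.859 to 0.864) and Cyr61, Ahsa1 and Mgst1 (Cxcr4, r = 0.849 to 0.859). No receptor was among the 3 genes most alike another.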

How the data were processed

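RNA of 16 libraries was used of the 22 in the series. The authors trimmed the reads with Cutadapt and Trimmomatic, aligned them to mm10 with STAR and the remainder with Bowtie2, counted reads per gene with HTSeq, having removed ribosomal reads. The deposited signal is a count normalized with DESeq2, as a count over a size factor. The strand setting, annotation and versions are not given in the sources used here. Without strand, reads of a gene and its antisense partner cannot be told apart. Multiplied by the size factor found from its steps, 100% of each library's values came out whole (tolerance 0.01 reads). Replicates differed by more than sampling noise. The table of the treatment experiment (anti-PD-L1, IgG2b) was left aside, since its 6 column names match no label.

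Groups were compared with limma 3.58.1 (R 4.3.3), using a mean-dependent trend on log2(normalized count + 1), a mean of at least 5, two-sided, with Benjamini-Hochberg adjustment at 0.05. Tumor comparisons used 12 tumors in 4 groups, those with MC38 cells or skin 14 libraries, with the days of a genotype weighted equally. The normalized counts, not the reads, were tested there, while the reads served as alternatives with edgeR 4.0.16 and with DESeq2 1.42.0. The fit was also repeated with pseudocounts of 0.1 and 5, without a filter or with one at 20, after upper quartile or total rescaling, without the trend, with the replicate number as a block, on only the groups compared, and leaving out each replicate. The fits were tested on simulated data.

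The members, lists and tests were chosen with earlier results of these data known. By the rule for named genes, all 8 members are named, up to 4 genes of a list per comparison by adjusted p, a few cell type markers and the 3 genes most alike each member. Xcr1, Ly6c2 and the fifth T cell gene called were named after their values were seen. Positions come from GENCODE M21 (GRCm38), promoters from RefSeq (GRCm38.p6).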

Additional observations from a re-analysis of the deposited data

Results flagged for a closer look

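Replicate 2 of the tumors labelled RAG1-/- of day 23 stood apart from the other 5 tumors of that genotype for 3 receptors. It had 238 normalized counts of Cxcr4, with 96.3 in the next highest, 8.51 of Cxcr6, with 1.11 in the next, and 6.38 of Cxcr3, with 2.21 in the next. In each case the gap to the nearest tumor, as a share of the whole range, exceeded Dixon's 95% limit for 6 samples. Normally distributed values pass it in about 1 of 20 groups, and 16 groups were examined. Cxcr6 was at 0 in 4 of the 6 tumors labelled RAG1-/- and Cxcr3 in 2, so that rate does not hold for them. The library was the smallest of the 12 tumors, and its Cxcr6 and Cxcr3 levels rest on 4 and 3 reads. It held 6.38 normalized counts of the 8 T cell genes together, with Cd3e at 0, and 189 of Cxcl12. The part of these in the values was not tested. No difference in the change over time between the genotypes passed the adjusted threshold for a member.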

How the results depend on the processing

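Cxcr6 was called over both days, alone among the members, under every alternative that tested it and without any single tumor, also relative to Ptprc; with a mean of at least 20 it was not tested, and 0 members were called in either comparison. At day 23, 1 member (Cxcr6) was called with a pseudocount of 5, with DESeq2 and without replicate 2 of the RAG1-/- tumors, the range without a replicate being 0 to 1. Against skin, 3 to 5 members were called without a replicate, fewest without skin replicate 2, and 6 with only the groups compared, where Cxcr3 was added.

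The number of genes called at day 23 was 41, and 22 with no filter, 15 without the trend, 22 by edgeR, 242 by DESeq2 and 5 to 60 without a replicate. Over both days it was 105, and 48 without the trend, 286 by DESeq2 and 65 to 171 without a replicate. Relative to Ptprc it was 86, and 32 without the trend. For wild-type day 46 against day 23 it was 0, and 1 with the upper quartile, 41 by DESeq2 and 0 to 7 without a replicate. For day 23 against day 13 in tumors labelled RAG1-/- it was 0, and 207 by DESeq2, 23 with only the groups compared and 0 to 37 without a replicate. For the difference in change it was 0, and 58 by DESeq2 and 0 to 5 without a replicate. Against MC38 cells it was 3428 for tumors labelled RAG1-/-, and 1832 to 3569 without a replicate, and 4100 for wild-type tumors, and 2172 to 4396 without a replicate. With the upper quartile the split against MC38 cells went from 2317 higher and 1111 lower to 2438 and 600, and from 2687 and 1413 to 3087 and 621. Causes were not tested.

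The replicate number of tumors marks different mice. Of 18 same-numbered pairs, 4 had deviations that correlated above 0.1 (range -0.24 to 0.25), and 6 of 12 tumors correlated best with their own number. As a block it gave 173 genes relative to Ptprc in place of 86 and 109 in place of 105 over both days, Cxcr6 being called in both.

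Some signs turned when a replicate was left out, for differences that did not pass. Without a replicate, Cxcr4 ranged from -0.15 to 1.36 at day 23 and from -0.067 to 0.69 over both days. The ranges were -1.03 to 0.12 for Ccr2 at day 23, -0.14 to 0.28 for Cx3cr1 relative to Ptprc, -0.42 to 0.0014 for Cxcr2 against MC38 cells in tumors labelled RAG1-/-, -0.11 to 0.72 for Cxcr4 against skin, and -2.78 to 0.41 normalized counts for Cxcr3 at day 23.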
